A study of Mus musculus with 57 samples.

Results

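Hearts of mice given doxorubicin together with nicotinamide mononucleotide (Doxo-NMN) were compared with hearts of vehicle-treated mice (Ctrl) at day 5 of the acute study, to describe what still differed from vehicle hearts when NMN was given with the drug. The comparison takes every heart that the labels place in these groups, 13 Acute Doxo-NMN and 14 Acute Ctrl hearts, which are 27 of the 57 hearts of the series. All mice were male C57BL/6J mice, 9 weeks old at purchase. Doxo-NMN mice received a single i.p. injection of 20 mg/kg Doxo and i.p. NMN at 180 mg/kg/day, begun 5 days before Doxo and continued for the 5 days after it, the last dose on the day the hearts were taken. Ctrl mice received vehicle without Doxo or NMN. The 13 Acute Doxo hearts, from mice given the same Doxo injection and vehicle in place of NMN, are used only beside the results. All hearts came from mice alive at day 5, and no group received NMN alone, so what Doxo leaves behind and what NMN adds by itself cannot be told apart in these data. Per the study's methods the acute hearts came from 1 cohort of mice. The hour of the day at which each heart was taken is not given in the sources used here.

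Doxo is an anthracycline that traps topoisomerase II on DNA, breaks DNA and, in cycling through its quinone form, produces reactive oxygen species. Its use against tumours is limited by damage to heart muscle, and it also suppresses dividing cells of the bone marrow. NMN is a precursor of NAD+, the cofactor of mitochondrial dehydrogenases and the substrate of sirtuins and of poly(ADP-ribose) polymerases. Poly(A) RNA was sequenced, and the values are counts of reads per gene, given here as CPM, the counts scaled to a common library size after TMM normalisation. Values are given as the range and the median of CPM over the hearts of a group, and folds are Doxo-NMN over Ctrl unless stated. A gene was called higher or lower at an adjusted p under 0.05 in edgeR's quasi-likelihood test and a fold change of at least 1.5.

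Totals ranged from 32409622 to 43907454 counts in Ctrl hearts and from 35146539 to 52102850 in Doxo-NMN hearts, and 3 counts, the smallest value taken as detectable, were 0.0576 to 0.0926 CPM when divided by the raw library total without the TMM factor, which covers counting error only. Heart muscle markers were present in every heart, and 0 of the 13 tested cardiomyocyte markers were called by edgeR, DESeq2 or limma voom, with 4 at an unadjusted p under 0.05. *Myh6*, the main adult heavy chain of mouse heart muscle, lay at 30283–37059 CPM (median 33760) in Ctrl hearts and at 13343–44514 CPM (median 39241) in Doxo-NMN hearts. Atrial tissue was taken unevenly. *Myl4*, an atrial light chain, was at or over 100 CPM in 8 of 14 Ctrl hearts and in 4 of 13 Doxo-NMN hearts, and counts of calls within hearts under this level and within those at or over it, with fewer hearts in each, are given beside several of the lists. In bulk tissue, fewer cells of a type and less RNA per cell cannot be told apart.

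Between Doxo-NMN and Ctrl hearts, 1012 of 14240 tested genes were called, 472 higher and 540 lower, which is 7.11% of the tested genes, 3.31% higher and 3.79% lower. In the same fit, Doxo against Ctrl called 30.1% of the tested genes (14.7% higher, 15.4% lower), and Doxo-NMN against Doxo 17.1% (8.17% higher, 8.88% lower), and these comparisons share hearts with the first. The residual changes were mostly modest. The median fold was 1.84 among the genes called higher and 1.81 among those called lower, and 26 and 29 genes passed 4-fold. For 204 genes, 1.43% of those tested, the 13 Doxo-NMN hearts lay entirely above or below the 14 Ctrl hearts. Genes of the circadian clock and of red cells were among those with the smallest adjusted p, as the plot of fold change against adjusted p shows.

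**Figure D1:**
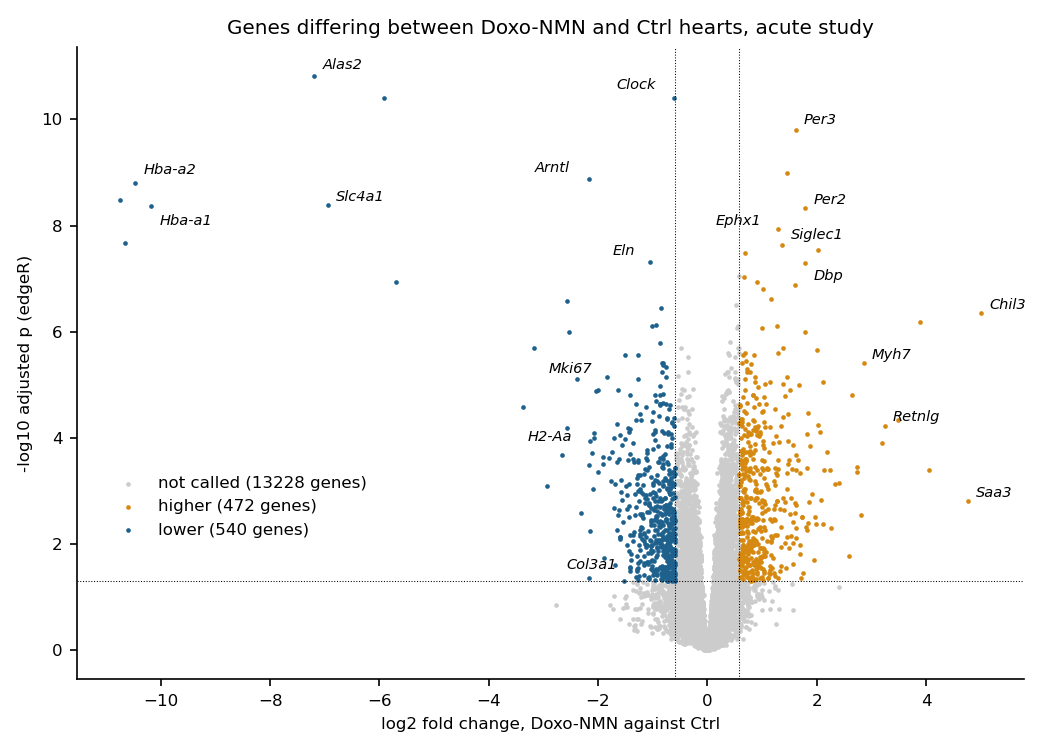
Each point is 1 of 14240 tested genes, with the log2 fold change of Doxo-NMN against Ctrl on the x axis and −log10 of the adjusted p on the y axis, and dotted lines at the thresholds. The haemoglobin genes lie furthest to the left, *Chil3* and *Saa3* furthest to the right, and clock genes near the top on both sides.

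Hearts of the Doxo-NMN group were not alike. Projected on the difference between the mean Ctrl and the mean Doxo heart over all tested genes, with the mean of Ctrl at 0 and that of Doxo at 1 by construction, the Doxo-NMN hearts lay between 0.237 and 0.909 (median 0.399), and the Ctrl hearts between −0.0539 and 0.0649. All 13 Doxo-NMN hearts lay above the highest Ctrl heart. Replicate 10 stood apart at 0.909, since the next highest heart was at 0.567. Without replicate 10, 842 genes were called, 378 higher and 464 lower. Doxo replicate 6 lay at 0.0544, next to the Ctrl hearts, and differences from Doxo below are therefore repeated without it where that changes them. Within Doxo-NMN hearts under 100 CPM of *Myl4* the median position was 0.425, and within those at or over it 0.313.

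**Figure D2:**
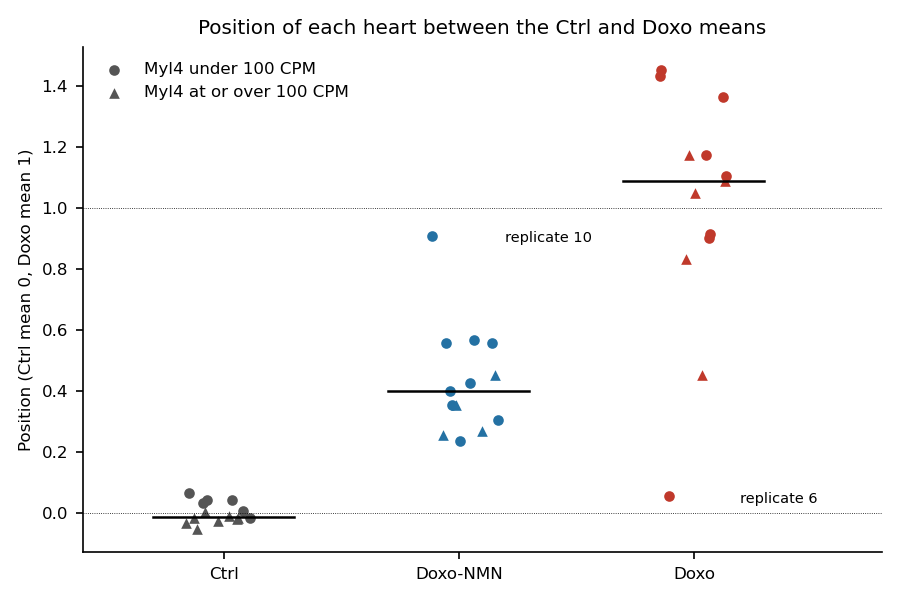
Each point is 1 heart, the y axis is its position on the line from the Ctrl mean (0) to the Doxo mean (1), bars are group medians and triangles mark hearts with at least 100 CPM of *Myl4*. The Doxo-NMN hearts sit between 0.237 and 0.909, all above the Ctrl hearts, with replicate 10 highest.

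Circadian clock genes were among those with the smallest adjusted p. The clock is a feedback loop in which CLOCK and BMAL1, the product of *Arntl*, bind E-boxes and switch on *Per*, *Cry*, *Nr1d*, *Dbp*, *Tef* and *Ciart*, whose PER and CRY products then hold CLOCK and BMAL1 back. It runs in heart muscle cells as in most tissues, and it swings over the day. Of the 19 clock genes tested, 8 were called higher (*Per3*, *Per2*, *Dbp*, *Tef*, *Per1*, *Ciart*, *Nr1d2* and *Cry2*) and 4 lower (*Clock*, *Arntl*, *Npas2* and *Nfil3*). This is 63.2% of the list, against 7.11% of all tested genes. The higher genes are on the repressing or output side of the loop and the lower ones include its activators *Clock*, *Arntl* and *Npas2*.

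The bases before the start of 3 of the higher genes are shown because they hold the E-box, CACGTG, that CLOCK and BMAL1 bind. Each run is the 250 bases before the RefSeq gene start in GRCm38.p6, 5′ to 3′ on the strand of the gene, with each E-box in capitals.
*Ciart* (chr3:95882229-95882478, minus strand): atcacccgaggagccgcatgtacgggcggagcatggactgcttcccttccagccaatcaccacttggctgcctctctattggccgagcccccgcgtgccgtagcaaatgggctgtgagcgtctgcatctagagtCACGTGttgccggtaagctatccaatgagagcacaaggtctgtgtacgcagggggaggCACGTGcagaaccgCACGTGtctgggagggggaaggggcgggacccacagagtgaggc
*Per1* (chr11:69098699-69098948, plus strand): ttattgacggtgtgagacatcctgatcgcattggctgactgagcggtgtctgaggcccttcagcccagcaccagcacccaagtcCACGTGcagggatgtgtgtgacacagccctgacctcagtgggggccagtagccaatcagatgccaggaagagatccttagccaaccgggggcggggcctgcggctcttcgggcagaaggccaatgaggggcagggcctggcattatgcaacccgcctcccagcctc
*Tef* (chr15:81802423-81802672, plus strand): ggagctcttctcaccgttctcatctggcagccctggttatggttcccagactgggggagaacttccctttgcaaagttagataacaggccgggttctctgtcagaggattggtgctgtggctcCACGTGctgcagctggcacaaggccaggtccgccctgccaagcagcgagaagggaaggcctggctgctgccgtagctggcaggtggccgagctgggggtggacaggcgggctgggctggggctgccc
The window of *Ciart* holds 3 E-boxes, the farthest beginning 116 and the nearest 44 bases before the start, and those of *Per1* and *Tef* hold 1 each, 166 and 127 bases before it. The E-box reads the same on both strands. Of the 16 clock genes with a window, 5 (31.2%) held it, against 6.86% of all 27025 genes with a window, and 3 of these 5 (*Per1*, *Tef* and *Ciart*) were called higher. *Cry1* and *Bhlhe41* held it without being called. Such a match describes the letters and is no measure of binding.

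*Per3*, a member of the PER family, lay at 8.73–16.8 CPM (median 13.3) in Ctrl hearts and at 29.5–50.1 CPM (median 38.4) in Doxo-NMN hearts (log2 fold change 1.61 ± 0.14 (SE), adjusted p = 1.6e-10). Every Doxo-NMN heart was above every Ctrl heart, and the same held for *Per2*, at 4.89–12.4 CPM (median 8.80) against 25.8–37.6 CPM (median 28.7) (3.46-fold higher, adjusted p = 4.7e-09). *Ciart*, a repressor of CLOCK and BMAL1, rose 4.01-fold, from 1.56–4.14 CPM (median 3.10) to 8.49–20.2 CPM (median 11.5) (adjusted p = 2.2e-06). *Tef*, a PAR bZIP transcription factor under clock control, stood at 58.8–118 CPM (median 94.7) in Ctrl and 161–224 CPM (median 183) in Doxo-NMN hearts (log2 fold change 1.03 ± 0.12 (SE), adjusted p = 1.5e-07). For *Per2*, *Tef* and *Ciart* the difference between Doxo-NMN and Doxo did not pass the test, with adjusted p of 0.49, 0.35 and 0.15. *Per1* and *Cry2* were higher than in Ctrl hearts but lower than in Doxo hearts, *Per1* at a median of 27.9 CPM in Ctrl, 92.9 CPM in Doxo-NMN and 220.5 CPM in Doxo hearts, and *Cry2* at 26.2 CPM, 45.2 CPM and 76.97 CPM.

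*Arntl* and *Dbp* set the Doxo-NMN hearts apart from both other groups. *Arntl* (chr7:113207465-113314126, plus strand, mm10) lay at 18.5–33.4 CPM (median 23.7) in Ctrl, 2.83–12.4 CPM (median 4.88) in Doxo-NMN and 7.79–42.4 CPM (median 15.9) in Doxo hearts. It was 4.50-fold lower in Doxo-NMN than in Ctrl hearts, with no overlap (log2 fold change −2.17 ± 0.21 (SE), adjusted p = 1.3e-09), and lower than in Doxo hearts (log2 fold change −1.76 ± 0.21 (SE), adjusted p = 2e-07), while Doxo against Ctrl gave a log2 fold change of −0.41 and was not called. *Dbp*, another PAR bZIP factor of the clock output, lay at 5.62–23.8 CPM (median 14.3) in Ctrl, 20.8–70.6 CPM (median 48.8) in Doxo-NMN and 6.57–31.1 CPM (median 17.5) in Doxo hearts. It was 3.46-fold higher than in Ctrl hearts (log2 fold change 1.79 ± 0.20 (SE), adjusted p = 5.2e-08) and higher than in Doxo hearts (log2 fold change 1.48 ± 0.21 (SE), adjusted p = 1.2e-06), with 12 of 13 Doxo-NMN hearts above the highest Ctrl heart.

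*Clock* itself was lower by less, from 69.6–81.8 CPM (median 73.95) to 41.03–57.96 CPM (median 48.3), but without overlap (log2 fold change −0.61 ± 0.05 (SE), adjusted p = 3.9e-11), and within hearts under 100 CPM of *Myl4* it passed the p but not the fold threshold (log2 fold change −0.57, adjusted p = 0.00029). *Npas2*, a paralogue of CLOCK, fell from 3.71–8.97 CPM (median 6.57) to 2.77–6.68 CPM (median 3.33) (log2 fold change −0.81 ± 0.16 (SE), adjusted p = 0.00037). *Nfil3*, a repressor of genes that DBP activates, was at 12.5–32.4 CPM (median 21.6) in Ctrl, 6.48–31.2 CPM (median 12.1) in Doxo-NMN and 13.7–129 CPM (median 34.3) in Doxo hearts, lower than in Ctrl (log2 fold change −0.70 ± 0.23 (SE), adjusted p = 0.024) and lower than in Doxo hearts, where it was called higher than in Ctrl. *Nr1d1*, which encodes REV-ERBα, a repressor of *Arntl*, had a log2 fold change of −0.52 and an adjusted p of 0.053. The 8 higher calls stood within the hearts under and within those at or over 100 CPM of *Myl4*, while of the 4 genes lower only *Arntl* was called in both. Whether hours of collection differed between groups was not tested.

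Other genes were also called on the same side of both Ctrl and Doxo hearts. *Siglec1*, a sialic acid receptor of macrophages that interferon induces, lay at 3.31–5.20 CPM (median 4.49) in Ctrl, 8.32–16.9 CPM (median 10.4) in Doxo-NMN and 4.04–12.3 CPM (median 5.99) in Doxo hearts. All 13 Doxo-NMN hearts were above all Ctrl hearts (log2 fold change 1.37 ± 0.15 (SE), adjusted p = 2.3e-08), and the difference from Doxo was also called (log2 fold change 0.64 ± 0.15 (SE), adjusted p = 0.00057). *Wee1*, a kinase that delays entry into mitosis and a known clock output, was at a median of 11.6 CPM in Ctrl, 24.8 CPM in Doxo-NMN and 12.7 CPM in Doxo hearts (log2 fold change 0.99 against Ctrl and 0.73 against Doxo). *Frem2*, an extracellular matrix protein of basement membranes, and *Hs3st5*, a heparan sulfate sulfotransferase, were likewise higher than in both, with log2 fold changes of 0.83 and 0.995 against Ctrl and 0.77 and 0.86 against Doxo. Lower than both were *Arrdc4*, an arrestin-like protein that dampens glucose uptake, at 10.8–17.9 CPM (median 13.99) in Ctrl, 6.09–10.4 CPM (median 7.47) in Doxo-NMN and 7.20–26.1 CPM (median 11.9) in Doxo hearts (log2 fold change −0.94 ± 0.12 (SE), adjusted p = 7.6e-07), and *Ptpre*, a tyrosine phosphatase, at medians of 5.65 CPM, 3.69 CPM and 5.20 CPM. Among genes chosen after their values were seen, *Cldn5*, the main claudin of endothelial tight junctions, was also lower than both, at 10.2–25.5 CPM (median 15.2) in Ctrl, 5.62–12.6 CPM (median 7.08) in Doxo-NMN and 10.7–68.01 CPM (median 19.9) in Doxo hearts (log2 fold change −0.99 ± 0.22 (SE), adjusted p = 0.001), and called in the other direction in Doxo against Ctrl. These comparisons share hearts, so each is given with its own values and no overlap is drawn from them.

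**Figure D3:**
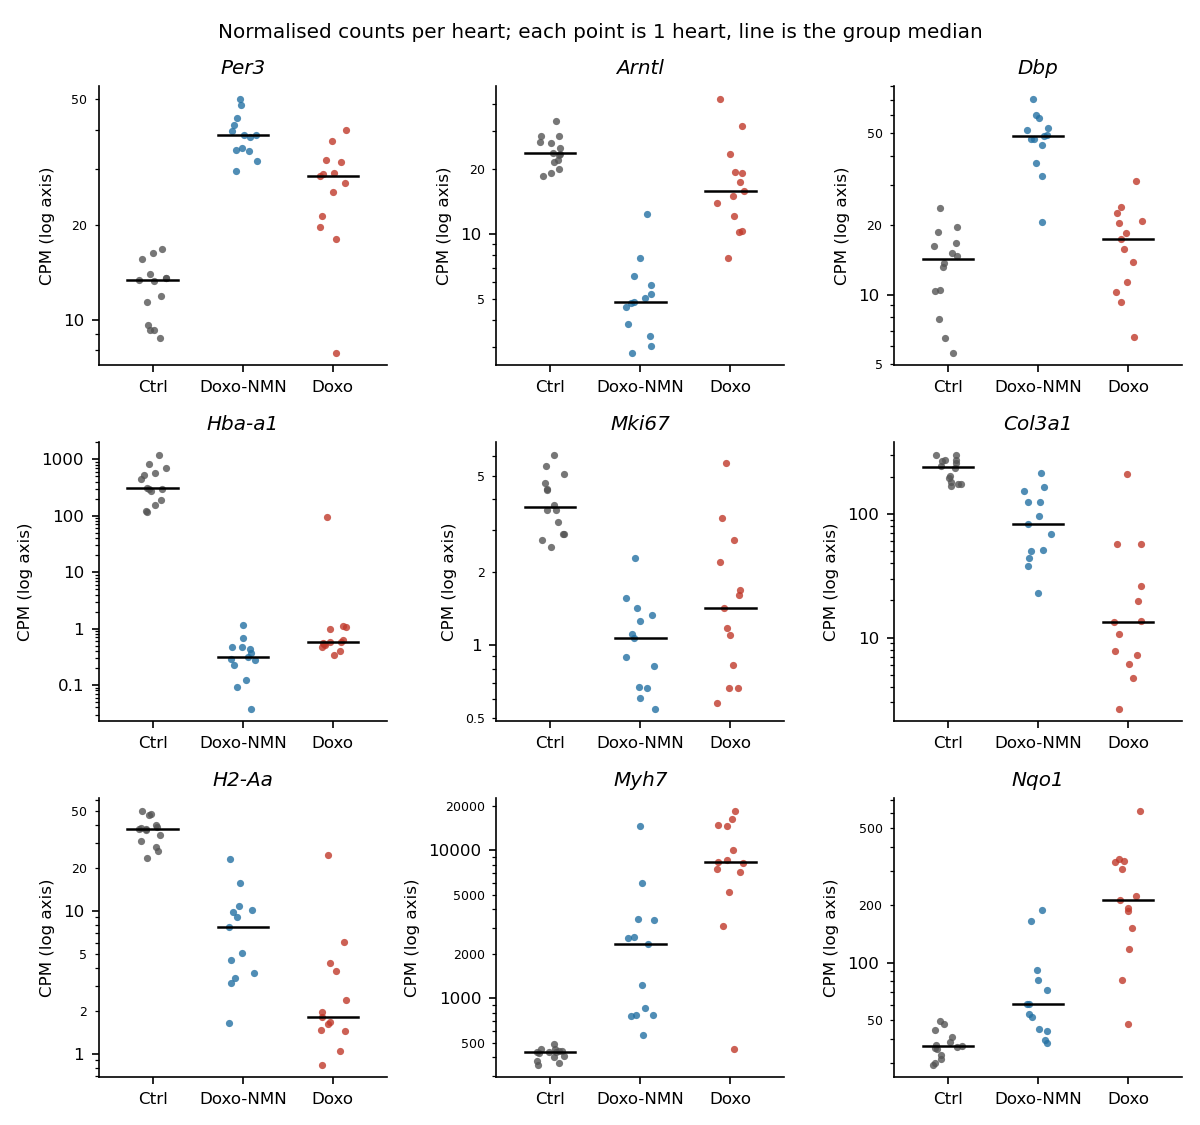
Each point is 1 heart of the Ctrl, Doxo-NMN or Doxo group, the y axis is CPM on a log scale and the lines are group medians, for 9 of the genes described. *Per3* and *Dbp* are highest and *Arntl* lowest in Doxo-NMN hearts, *Hba-a1* falls below 1.2 CPM in every Doxo-NMN heart, and *Mki67*, *Col3a1* and *H2-Aa* lie lower and *Myh7* and *Nqo1* higher than in Ctrl hearts.

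Red cell transcripts were far lower in Doxo-NMN hearts. Young red cells still carry the transcripts of haemoglobin and of haem synthesis, and they mark blood in the tissue. Of the 13 red cell genes tested, 10 were called lower and 1, *Rhd*, higher, 84.6% of the list against 7.11% of all tested genes. Their median log2 fold change was −5.91, against 0.0065 over all tested genes. The summed level over all 18 list genes counted, tested or not, was 494.9 to 4439 CPM in Ctrl and 45.7 to 59.95 CPM in Doxo-NMN hearts. *Hba-a1*, an alpha globin, lay at 118–1207 CPM (median 305) in Ctrl hearts and at 0.0380–1.16 CPM (median 0.309) in Doxo-NMN hearts (log2 fold change −10.17 ± 1.04 (SE), adjusted p = 4.3e-09). *Hba-a1* and *Hba-a2*, and likewise *Hbb-bs* and *Hbb-bt*, are near-identical copies between which reads may be split, so single values are uncertain. *Alas2*, the first enzyme of haem synthesis in red cells, had the smallest adjusted p of all tested genes, 11.9–111 CPM (median 27.2) in Ctrl against 0.0888–0.432 CPM (median 0.297) in Doxo-NMN hearts (log2 fold change −7.20 ± 0.57 (SE), adjusted p = 1.5e-11). *Slc4a1*, an anion exchanger of the red cell membrane, was at or under 3 counts in 11 of the 13 Doxo-NMN hearts, so no fold is given for it. *Bpgm*, an enzyme of red cell glycolysis, fell 1.76-fold, from 17.5–53.4 CPM (median 25.2) to 13.7–18.1 CPM (median 15.6) (adjusted p = 1.5e-05).

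Hearts given Doxo alone were low in the same transcripts, at a median of 0.568 CPM of *Hba-a1* and 0.471 CPM of *Alas2*. The 4 globin genes were called lower in Doxo-NMN than in Doxo hearts, but this rested on Doxo replicate 6, at 93.8 CPM of *Hba-a1* against 1.12 CPM or less in the other Doxo hearts. Without that heart the log2 fold change of *Hba-a1* against Doxo was −0.77 (adjusted p = 0.13), and it was not called. *Tent5c*, also in the red cell list, remained lower than in Doxo hearts without Doxo replicate 6, at a log2 fold change of −1.05 (adjusted p = 0.008). *Rhd*, the Rh blood group protein, moved against the list, from 3.60–7.62 CPM (median 5.16) to 5.59–12.3 CPM (median 7.77) (log2 fold change 0.74 ± 0.13 (SE), adjusted p = 7.7e-05).

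Genes of cell division were lower in Doxo-NMN hearts. Of 30 tested genes of growth and cell division, 18 were called lower and 0 higher, with a median log2 fold change of −0.89. This is 60% of the list, against 7.11% of all tested genes. In all 13 Doxo-NMN hearts the mean over the list lay below the lowest Ctrl heart. *Mki67*, the Ki-67 marker of cycling cells, fell from 2.55–6.10 CPM (median 3.70) to 0.548–2.28 CPM (median 1.07) (log2 fold change −1.84 ± 0.27 (SE), adjusted p = 7.1e-06). *Top2a*, the topoisomerase II of dividing cells and a target of Doxo, fell 5.25-fold, from 0.931–3.34 CPM (median 2.27) to 0.120–0.666 CPM (median 0.477), also without overlap (adjusted p = 7.9e-06). *Cdk1*, the kinase that drives mitosis, lay at 0.300–0.983 CPM (median 0.684) against 0.0240–0.402 CPM (median 0.162) (log2 fold change −2.01 ± 0.31 (SE), adjusted p = 1.2e-05). *Ccna2*, cyclin A2, fell from 0.650–1.59 CPM (median 0.909) to 0.114–0.599 CPM (median 0.248) and was called lower than in Doxo hearts as well, where its median was 0.563 CPM (log2 fold change −1.04, adjusted p = 0.00097). These genes are low in every group. With all counts halved, 11 of the 30 were called lower in place of 18. With at least 10 counts required in every heart it was 5, a filter that leaves low genes untested. Within hearts under and over 100 CPM of *Myl4*, 11 of the 30 were called lower each time. The letters TTTGAA of the cell cycle homology region, searched on both strands, occur before 8 of the 28 list genes with a window (28.6%) and before 18.3% of all genes with one.

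Genes of the extracellular matrix were lower. Of 39 tested collagen and matrix genes, 23 were called lower and 0 higher, 58.97% of the list against 7.11% of all tested genes. The median log2 fold change was −0.73 in Doxo-NMN and −1.25 in Doxo hearts, both against the same Ctrl hearts. *Eln*, elastin, had the smallest adjusted p of the list, at 68.2–138 CPM (median 94.4) in Ctrl and 34.8–72.98 CPM (median 48.8) in Doxo-NMN hearts (log2 fold change −1.06 ± 0.12 (SE), adjusted p = 4.8e-08). *Fbn1*, fibrillin of the microfibrils, fell from 67.3–93.1 CPM (median 81.3) to 30.4–64.1 CPM (median 42.4) without overlap (log2 fold change −0.87 ± 0.13 (SE), adjusted p = 1e-05). *Sparc*, a collagen-binding matrix protein, likewise fell without overlap, from 236–326 CPM (median 277) to 106–224 CPM (median 147) (adjusted p = 2.3e-05). The basement membrane collagen *Col4a1* lay at 379–639 CPM (median 447) against 226–425 CPM (median 264) (log2 fold change −0.82 ± 0.12 (SE), adjusted p = 4.3e-06). The fibrillar collagens *Col1a1* and *Col3a1* were lower in Doxo-NMN hearts with a wide spread, *Col3a1* at 169–302 CPM (median 241) in Ctrl and 22.97–215 CPM (median 83.5) in Doxo-NMN hearts (log2 fold change −1.29 ± 0.44 (SE), adjusted p = 0.029), and its median in Doxo hearts was 13.3 CPM. *Col1a1* was at 82.5–139 CPM (median 111) against 19.1–96.3 CPM (median 46.8) (log2 fold change −1.003 ± 0.37 (SE), adjusted p = 0.038), and it kept its call in 16 of the 27 fits that each left out 1 heart (without Doxo-NMN replicate 10, log2 fold change −0.93, adjusted p = 0.066).

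Of 16 fibroblast markers, 8 were called lower and 0 higher, 50% of the list against 7.11% of all tested genes. Among the 8 were *Col1a1*, *Col1a2*, *Col3a1* and *Mfap5*, which are also in the matrix list. *Pi16*, of a universal fibroblast population, fell from 37.5–63.3 CPM (median 45.5) to 10.9–36.7 CPM (median 21.5) (log2 fold change −1.02 ± 0.21 (SE), adjusted p = 0.00054). *Tcf21*, a transcription factor of cardiac fibroblasts, lay at 4.60–9.98 CPM (median 6.47) in Ctrl, 3.001–6.39 CPM (median 4.29) in Doxo-NMN and 3.27–13.9 CPM (median 7.10) in Doxo hearts, lower than in Ctrl (log2 fold change −0.67 ± 0.18 (SE), adjusted p = 0.0043) and than in Doxo hearts (log2 fold change −0.85 ± 0.18 (SE), adjusted p = 0.00017). The summed level of the fibroblast markers ran from 1874 to 3567 CPM in Ctrl and from 1264 to 3253 CPM in Doxo-NMN hearts, so these ranges overlapped. Within hearts under 100 CPM of *Myl4*, 12 of the matrix genes and 1 of the fibroblast markers were called lower, and at or over it 7 and 1. With the level of *Myl4* as a covariate over all acute hearts, 4 of the fibroblast markers were called lower in place of 8, and 20 of the matrix genes in place of 23. Doxo-NMN replicate 2, with the highest *Myl4* of its group, had matrix and fibroblast levels within the Ctrl range, and without it 661 genes in all were called lower in place of 540.

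Of smooth muscle and pericyte, endothelial and nerve markers, 7.69%, 30% and 20% were called, against 7.11% of all tested genes. For adipocyte and atrial markers it was 10% and 8.33%. The list mean lay below every Ctrl heart in 11 of 13 Doxo-NMN hearts for endothelial, 10 for smooth muscle and 6 for nerve markers. *Rgs4* alone of 13 smooth muscle and pericyte markers was called lower. Of 20 endothelial markers, *Aplnr*, *Cldn5*, *Kdr* and *Apln* were lower and *Sox17* and *Rgcc* higher. *Aplnr*, the apelin receptor, fell from 13.01–50.5 CPM (median 24.6) to 1.01–17.5 CPM (median 3.45) (log2 fold change −2.66 ± 0.51 (SE), adjusted p = 0.00021), and *Kdr*, the main VEGF receptor, from 138–263 CPM (median 170.4) to 91.7–201 CPM (median 97.6) (log2 fold change −0.71 ± 0.17 (SE), adjusted p = 0.0018). *Sox17*, an arterial transcription factor, rose without overlap, from 9.84–14.2 CPM (median 12.6) to 17.5–37.04 CPM (median 21.1) (log2 fold change 0.86 ± 0.14 (SE), adjusted p = 2.6e-05). Of 10 adipocyte markers *Scd1* was called lower, in 19 of 27 fits that left out 1 heart, and of 12 atrial markers *Stard10*, while 0 of 9 epicardial markers were called by edgeR, DESeq2 or limma voom, and 0 had an unadjusted p under 0.05. *Dbh*, the noradrenaline-making enzyme of sympathetic nerves, fell from 2.33–6.60 CPM (median 3.55) to 0.384–2.54 CPM (median 1.05) (log2 fold change −1.61 ± 0.31 (SE), adjusted p = 0.00025).

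Immune markers fell into groups that moved in opposite directions. Of 11 tested markers of MHC class II and dendritic cells, 8 were called lower and 0 higher, with a median log2 fold change of −1.42. This is 72.7% of the list, against 7.11% of all tested genes. Within hearts under 100 CPM of *Myl4* 5 were called lower, and at or over it 9. These genes present antigen to helper T cells, and CIITA switches them on. *H2-Aa*, a class II alpha chain, lay at 23.5–50.2 CPM (median 37.5) in Ctrl hearts, 1.65–22.9 CPM (median 7.75) in Doxo-NMN hearts and 0.839–24.7 CPM (median 1.80) in Doxo hearts, lower than in Ctrl without overlap (log2 fold change −2.15 ± 0.39 (SE), adjusted p = 0.00012) and higher than in Doxo (log2 fold change 1.01 ± 0.40 (SE), adjusted p = 0.03). *Cd74*, the invariant chain, fell from 49.7–97.6 CPM (median 71.6) to 5.60–59.9 CPM (median 16.6) (log2 fold change −1.90 ± 0.38 (SE), adjusted p = 0.00031), and *H2-DMa*, which loads peptides, from 1.97–4.04 CPM (median 2.97) to 0.359–1.84 CPM (median 1.22) (log2 fold change −1.42 ± 0.22 (SE), adjusted p = 1.5e-05). The highest class II levels of the group were in replicate 12 and the lowest list mean in replicate 10. The summed level of all 15 list genes counted, tested or not, was 142.6 to 268.2 CPM in Ctrl and 22.9 to 150.7 CPM in Doxo-NMN hearts.

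Of 22 macrophage and monocyte markers, 4 were called lower and 3 higher, 31.8% of the list against 7.11% of all tested genes. *Cx3cr1* and *Ccr2*, chemokine receptors of resident and of recruited monocytic cells, fell from 2.42–6.31 CPM (median 4.37) to 0.465–2.05 CPM (median 0.685) (log2 fold change −2.08 ± 0.38 (SE), adjusted p = 9.9e-05) and from 1.95–6.70 CPM (median 3.67) to 0.685–2.08 CPM (median 1.07) (log2 fold change −1.66 ± 0.29 (SE), adjusted p = 5.4e-05). *Csf1r*, the receptor that macrophages need to survive, was 1.64-fold lower, at 32.6–51.8 CPM (median 43.1) against 17.5–36.4 CPM (median 25.9) (adjusted p = 8.3e-05). In the other direction, *Ly6c2*, of classical monocytes, rose from 2.62–5.22 CPM (median 4.01) to 4.87–8.73 CPM (median 6.70) (log2 fold change 0.70 ± 0.12 (SE), adjusted p = 3.4e-05), and *Chil3*, a chitinase-like protein of myeloid cells, had the largest fold among the genes called higher. *Chil3* was at 0–0.252 CPM (median 0.0814) in Ctrl and 0.548–6.97 CPM (median 2.73) in Doxo-NMN hearts, without overlap (log2 fold change 5.004 ± 0.63 (SE), adjusted p = 4.5e-07), and at a median of 6.44 CPM in Doxo hearts. In 7 of the 14 Ctrl hearts it was at or under 3 counts, so the size of this fold is uncertain.

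Neutrophil markers were higher, 7 of 11 called, 63.6% against 7.11% of all tested genes. Their median log2 fold change was 2.41, from a level near detection. *S100a9*, a calcium-binding protein that neutrophils carry in bulk, lay at 0.190–2.09 CPM (median 0.780) in Ctrl, 1.99–12.6 CPM (median 4.03) in Doxo-NMN and 0.498–125.2 CPM (median 6.09) in Doxo hearts (against Ctrl, log2 fold change 2.73 ± 0.56 (SE), adjusted p = 0.00044). *S100a8*, its partner, was at 0.0877–1.41 CPM (median 0.361) against 0.609–11.1 CPM (median 2.45) (log2 fold change 3.20 ± 0.59 (SE), adjusted p = 0.00012), and *Retnlg*, a neutrophil resistin-like protein, at 0.0461–0.391 CPM (median 0.163) against 0.228–4.14 CPM (median 1.11) (log2 fold change 3.25 ± 0.56 (SE), adjusted p = 5.9e-05). The summed level of all 16 list genes counted, tested or not, was 3.01 to 8.95 CPM in Ctrl and 6.71 to 41.6 CPM in Doxo-NMN hearts. Without replicate 10, 7 were called higher, and within hearts under 100 CPM of *Myl4* 6 and at or over it 3. B cell and T and NK cell markers gave 0 calls by edgeR over 9 and 8 tested genes, with 3 and 2 at an unadjusted p under 0.05. Other fits called B cell markers lower, 1 of 9 with DESeq2, 3 with limma voom, 4 with only Ctrl and Doxo-NMN hearts in the fit, 2 with *Myl4* as a covariate and 2 without Doxo replicate 6. The mean log2 difference from Ctrl over the B cell markers lay below every Ctrl heart in 11 of 13 Doxo-NMN hearts, with a median of −0.65 in Doxo-NMN and −1.69 in Doxo hearts. Of the T and NK cell markers, 1 was called lower with only Ctrl and Doxo-NMN hearts in the fit and 1 with *Myl4* as a covariate, and 0 with DESeq2 or limma voom. *Cd79a* and *Cd79b*, of the B cell receptor, had a log2 fold change of −0.99 each, with adjusted p of 0.062 and 0.055.

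Interferon response genes were higher in part, 6 of 32 called higher and 1, *Cxcl9*, lower. That is 21.9% of the list, against 7.11% of all tested genes. *Irf7*, the transcription factor that amplifies type I interferon, rose from 6.78–13.5 CPM (median 8.17) to 10.8–39.2 CPM (median 20.7) (log2 fold change 1.27 ± 0.17 (SE), adjusted p = 7.6e-07), with 12 of 13 Doxo-NMN hearts above every Ctrl heart. *Ifit3*, an antiviral protein of the same response, lay at 6.20–13.6 CPM (median 8.44) against 10.4–42.6 CPM (median 15.1) (log2 fold change 1.11 ± 0.22 (SE), adjusted p = 0.00038). *Oasl2* and the unlisted *Ifi27l2a* and *Oas1g*, named after their values were seen, were higher than in Ctrl and in Doxo hearts, *Ifi27l2a* at 8.80–23.5 CPM (median 14.97) in Ctrl, 16.1–57.3 CPM (median 23.2) in Doxo-NMN and 3.15–30.8 CPM (median 11.8) in Doxo hearts (against Ctrl, log2 fold change 0.84 ± 0.24 (SE), adjusted p = 0.0076). Within hearts of at least 100 CPM of *Myl4* 13 genes of the list were called higher, and within hearts under it 2. The highest list mean was in Doxo-NMN replicate 2.

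**Figure D4:**
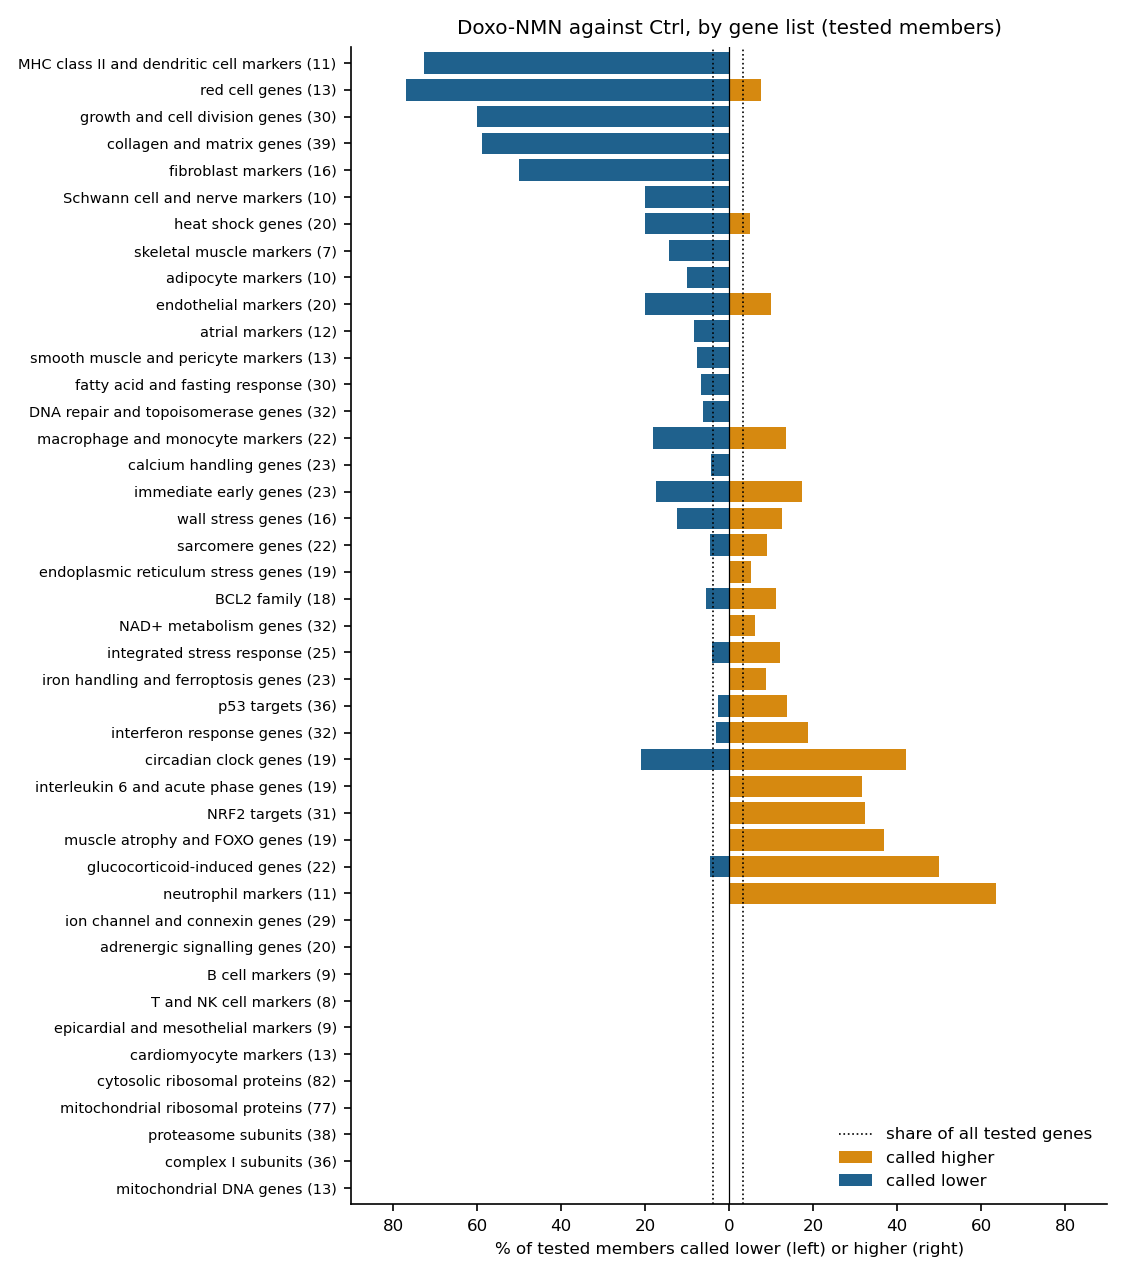
Bars give the percentage of the tested members of each list, their number in brackets, that were called higher (right) or lower (left) in Doxo-NMN against Ctrl hearts, and dotted lines the same over all 14240 genes, 3.31% and 3.79%. Red cell, MHC class II, cell division, matrix and fibroblast lists extend furthest to the left, and neutrophil, glucocorticoid-induced and clock lists furthest to the right.

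Of 22 sarcomere genes 2 were called higher (*Tcap* and *Myh7*) and 1 lower (*Acta1*), 13.6% of the list, and of 16 wall stress genes 2 higher (*Myh7* and *Ctgf*) and 2 lower (*Acta1* and *Cilp*), 25% of the list, against 7.11% of all tested genes. *Myh7*, the slow heavy chain of fetal and strained mouse ventricle, lay at 357–494 CPM (median 433) in Ctrl, 569.7–14648 CPM (median 2332) in Doxo-NMN and 453–18492 CPM (median 8388) in Doxo hearts. All Doxo-NMN hearts were above all Ctrl hearts (log2 fold change 2.86 ± 0.41 (SE), adjusted p = 3.9e-06), and the level was lower than with Doxo alone (log2 fold change −1.62 ± 0.40 (SE), adjusted p = 0.00099). The Doxo-NMN hearts spread widely, from 569.7 CPM to 6016 CPM in 12 of them and 14648 CPM in replicate 10, and without that replicate it was still called (log2 fold change 2.31, adjusted p = 8.6e-06). *Tcap*, which anchors titin at the Z disc, rose 1.995-fold, from 437–891 CPM (median 680.3) to 889–1685 CPM (median 1359) (adjusted p = 8.6e-07). *Acta1*, skeletal actin, fell from 51.3–472 CPM (median 195) to 29.2–124.9 CPM (median 54.8) (log2 fold change −1.65 ± 0.33 (SE), adjusted p = 0.00029). Within hearts under 100 CPM of *Myl4*, 2 sarcomere genes were called higher and 1 lower, and 2 wall stress genes each way. At or over it, 3 and 1 genes of these lists were called higher and 0 lower, so *Acta1* and *Cilp* were not called there. *Ctgf*, a matricellular protein of stretched and scarring tissue, was called higher with replicate 10 (log2 fold change 1.49 ± 0.44 (SE), adjusted p = 0.012) and not without it (log2 fold change 0.66, adjusted p = 0.17). *Ankrd1*, a sarcomeric stress protein, and *Nppb*, which encodes the natriuretic peptide BNP, had log2 fold changes of 0.87 and 0.23 with adjusted p of 0.12 and 0.59. Of 29 ion channel and connexin genes, 20 adrenergic signalling genes and 23 calcium handling genes, edgeR called 0, 0 and 1. The last was *Cacna1h*, 4.35% of its list against 7.11% of all tested genes. It kept its call in 12 of the 27 fits that left out 1 heart and was not called within either level of *Myl4*. Of the first and the second list, 13 and 3 genes had an unadjusted p under 0.05, DESeq2 called 0 of both and limma voom 1 ion channel gene. *Adcy6*, an adenylyl cyclase of the beta-adrenergic path, lay at 212–273 CPM (median 237) in Ctrl and 281–391 CPM (median 312) in Doxo-NMN hearts, above every Ctrl heart but at a log2 fold change of 0.40, under the fold threshold.

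Targets of NRF2, the factor that turns on antioxidant and detoxifying enzymes, were higher, with 10 of 31 called higher and 0 lower. This is 32.3% of the list, against 7.11% of all tested genes. Within hearts under 100 CPM of *Myl4* 5 genes of the list were called higher, and at or over it 4. *Ephx1*, the microsomal epoxide hydrolase, rose 2.45-fold from 18.8–36.8 CPM (median 29.8) to 56.2–92.2 CPM (median 67.99) without overlap (log2 fold change 1.29 ± 0.14 (SE), adjusted p = 1.2e-08), and its median in Doxo hearts was 69.1 CPM, with an adjusted p of 0.92 between Doxo-NMN and Doxo. *Gsta3* and *Gstm1*, glutathione transferases, rose from 3.60–5.78 CPM (median 5.11) to 5.84–15.1 CPM (median 9.51) (log2 fold change 1.01 ± 0.17 (SE), adjusted p = 3.1e-05) and from 145–178 CPM (median 164) to 187–391.7 CPM (median 249) (log2 fold change 0.73 ± 0.13 (SE), adjusted p = 9.2e-05), although close relatives of these genes may share reads. *Nqo1*, the quinone reductase, lay at 29.5–49.6 CPM (median 36.6) in Ctrl, 38.1–188 CPM (median 60.99) in Doxo-NMN and 47.9–615 CPM (median 212) in Doxo hearts, higher than in Ctrl (log2 fold change 1.02 ± 0.26 (SE), adjusted p = 0.0036) and lower than in Doxo (log2 fold change −1.66 ± 0.27 (SE), adjusted p = 7e-06). *Gclm*, a subunit of the first enzyme of glutathione synthesis, was called higher (log2 fold change 0.70 ± 0.22 (SE), adjusted p = 0.018), but not without replicate 10 (log2 fold change 0.54, adjusted p = 0.062). *Hmox1*, haem oxygenase, was not called, at 6.41–12.6 CPM (median 8.18) against 7.11–54.3 CPM (median 11.7) (adjusted p = 0.063). The core of the antioxidant response element, TGACNNNGC on either strand, occurs before 7 of 26 list genes with a window (26.9%) and before 11.5% of all genes.

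Of 36 p53 targets, 5 were called higher and 1 lower, 16.7% of the list against 7.11% of all tested genes. A positive fold change was seen in 31 of them, and their median was 0.30 (log2), against 0.0065 over all tested genes. The share of positive signs over all genes was not counted. Within hearts under 100 CPM of *Myl4* 2 of the p53 targets were called higher, and at or over it 3, with 0 lower in both. *Trp53inp1*, a p53-induced protein of stress and autophagy, rose from 14.4–24.5 CPM (median 16.99) to 23.8–70.9 CPM (median 45.3) (2.30-fold higher, adjusted p = 0.00012), less than in Doxo hearts, where the median was 114 CPM. *Eda2r*, a death receptor of the TNF family, lay at 2.75–3.84 CPM (median 3.29) against 2.83–9.23 CPM (median 6.06) (1.85-fold higher, adjusted p = 7.4e-05), and did not differ past the threshold from Doxo hearts (adjusted p = 0.9). *Cdkn1a*, the cell cycle inhibitor p21, had a log2 fold change of 0.30 with an adjusted p of 0.17, at medians of 62.8 CPM in Ctrl, 70.8 CPM in Doxo-NMN and 192 CPM in Doxo hearts. In the BCL2 family, *Bcl2l1*, which encodes the anti-apoptotic BCL-XL, rose from 34.1–60.97 CPM (median 43.3) to 61.3–151 CPM (median 65.7) without overlap (log2 fold change 0.78 ± 0.15 (SE), adjusted p = 0.00014), *Bnip3* was higher and *Hrk* lower. Of 32 DNA repair and topoisomerase genes, *Top2a* and *Chek2* were called, both lower. This is 6.25% of the list, near the 7.11% of all tested genes, and *Top2a* is also in the cell division list.

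Glucocorticoid-induced genes, which the adrenal stress hormone switches on in heart muscle, were higher, with 11 of 22 called higher and 1 lower. This is 54.55% of the list, against 7.11% of all tested genes. The median log2 fold change was 0.62, against 1.45 in Doxo hearts. *Per1* belongs to this list as well as to the clock. *Klf15* and *Ddit4* are also among the calls of the muscle atrophy list below, and *Lcn2* among those of the interleukin 6 list. The gene called lower, *Angptl4*, is also in the fasting list. *Hif3a*, *Nfkbia* and *Klf15* were among those called, *Klf15*, a regulator of amino acid and lipid use, at 54.9–88.3 CPM (median 64.7) against 94.6–168 CPM (median 112) without overlap (log2 fold change 0.87 ± 0.18 (SE), adjusted p = 0.00036). *Nfkbia*, the inhibitor of NF-κB, rose from 25.04–35.4 CPM (median 28.9) to 38.98–93.9 CPM (median 59.5), also without overlap (log2 fold change 1.04 ± 0.19 (SE), adjusted p = 0.00016). *Fkbp5*, a chaperone of the glucocorticoid receptor, was at 32.5–90.8 CPM (median 48.9) against 58.5–205 CPM (median 82.01) (log2 fold change 0.72 ± 0.19 (SE), adjusted p = 0.0046) and was not called without replicate 10 (log2 fold change 0.56, adjusted p = 0.017). Within hearts under 100 CPM of *Myl4* 5 genes of the list were called higher, and at or over it 9. Of 19 genes of muscle atrophy and FOXO, 7 were called higher and 0 lower, 36.8% of the list. *Map1lc3a*, *Sqstm1* and *Bnip3* of autophagy were among them, the first not called without Doxo-NMN replicate 4, 11 or 13. The count of 7 fell to 5 without Doxo-NMN replicate 10, to 4 with the replicate number as a block and with limma voom, and to 2 and 3 within hearts under and at or over 100 CPM of *Myl4*. The ubiquitin ligases *Trim63* and *Fbxo32* were not called (log2 fold changes 0.49 and 0.26, adjusted p of 0.041 and 0.19). *Irs2*, an insulin receptor substrate outside the lists and named after its values were seen, rose 4.34-fold from 10.4–20.1 CPM (median 14.5) to 21.3–170.2 CPM (median 49.1) without overlap (adjusted p = 8.7e-06).

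Of 19 interleukin 6 and acute phase genes, 6 were called, all higher, 31.6% of the list against 7.11% of all tested genes. Without replicate 10 the number was 5, within hearts under 100 CPM of *Myl4* 3 and at or over it 4. *Cebpd*, a transcription factor that interleukin 6 induces, rose from 10.1–17.9 CPM (median 14.1) to 23.6–53.7 CPM (median 30.2), with every Doxo-NMN heart above every Ctrl heart (log2 fold change 1.32 ± 0.24 (SE), adjusted p = 0.00012). *Serpina3n*, a secreted protease inhibitor, lay at 5.38–16.4 CPM (median 8.91) against 11.4–230.5 CPM (median 30.4) (log2 fold change 2.25 ± 0.46 (SE), adjusted p = 0.0004), and *Lcn2*, lipocalin 2, which binds bacterial iron carriers, at 1.55–6.78 CPM (median 2.65) against 3.37–81.1 CPM (median 9.50) (log2 fold change 2.34 ± 0.51 (SE), adjusted p = 0.00075). Replicate 10 was highest for both, and both were still called without it (log2 fold change 1.66, adjusted p = 0.0026 for the first and 1.68, adjusted p = 0.0058 for the second). *Saa3*, a serum amyloid, was between 0.0406 CPM and 2.72 CPM in 12 Doxo-NMN hearts and was 18.5 CPM in replicate 10. Of 23 immediate early genes, 4 were called higher and 4 lower, 34.8% of the list. Within hearts under 100 CPM of *Myl4* the counts were 2 and 1, and at or over it 1 and 3. *Nr4a1*, a nuclear receptor induced by stress, rose from 15.8–46.1 CPM (median 26.4) to 32.9–171 CPM (median 68.8) (log2 fold change 1.47 ± 0.27 (SE), adjusted p = 0.00012), while *Egr3*, a zinc finger factor, fell from 1.23–2.55 CPM (median 1.96) to 0.282–1.16 CPM (median 0.812) without overlap (log2 fold change −1.31 ± 0.22 (SE), adjusted p = 4.6e-05). *Egr1* lay lower than in Ctrl (log2 fold change −0.999, adjusted p = 0.03) and lower than in Doxo hearts (−2.17, adjusted p = 1e-05), and was not called against Ctrl without Ctrl replicate 10 or 12 or Doxo-NMN replicate 11.

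Heat shock genes were lower in 4 of 20 and higher in 1, 25% of the list against 7.11% of all tested genes. The gene called higher, *Hspb7*, was not called within either level of *Myl4*, with *Myl4* as a covariate or with limma voom. *Hsph1*, a cochaperone of HSP70, fell from 55.03–103 CPM (median 67.7) to 20.6–46.1 CPM (median 34.5) without overlap (log2 fold change −1.13 ± 0.18 (SE), adjusted p = 2.6e-05), and *Dnaja1*, an HSP40, from 59.7–117 CPM (median 87.5) to 34.8–62.6 CPM (median 49.5) (log2 fold change −0.85 ± 0.11 (SE), adjusted p = 3.6e-07). *Hspa1a* and *Hspa1b*, inducible HSP70 copies that are near identical and so uncertain one by one, were lower than in Ctrl and in Doxo hearts, *Hspa1b* at medians of 6.06 CPM in Ctrl, 2.27 CPM in Doxo-NMN and 3.26 CPM in Doxo hearts. *Herpud1*, a membrane protein of endoplasmic reticulum stress, was the 1 gene of 19 called in that list, at 153–282 CPM (median 201) against 321–556 CPM (median 368) without overlap (log2 fold change 0.95 ± 0.17 (SE), adjusted p = 9.4e-05). This 1 call is 5.26% of the list, under the 7.11% of all tested genes. In the integrated stress response 3 of 25 were called higher and 1 lower, 16% of the list. None of these 4 was called within hearts under 100 CPM of *Myl4*. *Cirbp* and *Rbm3*, RNA-binding proteins induced by mild cold, were named after their values were seen. *Cirbp* rose from 27.8–48.04 CPM (median 38.5) to 49.9–157 CPM (median 69.2) without overlap (log2 fold change 1.02 ± 0.19 (SE), adjusted p = 0.00012) and *Rbm3* from 30.4–49.04 CPM (median 41.04) to 39.3–158 CPM (median 82.8) (log2 fold change 1.05 ± 0.18 (SE), adjusted p = 6.2e-05), and in Doxo hearts their medians were 166 CPM and 179 CPM.

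Metabolic lists were called at near the 7.11% of all tested genes. The share called was 6.67% of the fatty acid and fasting list, 6.25% of the NAD+ list and 8.70% of the iron list. Of 30 genes of fatty acid use and the fasting response, *Angptl4* and *Pdk4* were called lower and none higher. *Pdk4*, the kinase that shuts off pyruvate oxidation, lay at 527–1597 CPM (median 1118) in Ctrl and 152–945 CPM (median 293) in Doxo-NMN hearts (log2 fold change −1.47 ± 0.43 (SE), adjusted p = 0.01), and *Angptl4*, an inhibitor of lipoprotein lipase, at 5.23–52.3 CPM (median 19.6) against 0.503–12.9 CPM (median 1.57) (log2 fold change −2.94 ± 0.64 (SE), adjusted p = 0.00082). Neither was called within hearts under 100 CPM of *Myl4*, where *Pdk4* had a log2 fold change of −1.27, adjusted p = 0.19, and *Angptl4* one of −2.64, adjusted p = 0.069. Of 32 genes of NAD+ metabolism, 2 were called higher. Within hearts under 100 CPM of *Myl4*, 1 gene of the list was called higher, and at or over it 0. *Nmrk2*, the muscle kinase that makes NMN from nicotinamide riboside, lay at 5.98–14.6 CPM (median 9.25) in Ctrl, 8.90–33.4 CPM (median 19) in Doxo-NMN and 8.14–73.7 CPM (median 37.6) in Doxo hearts (against Ctrl, log2 fold change 1.06 ± 0.25 (SE), adjusted p = 0.0017), and *Aox1*, an oxidase of nicotinamide breakdown, was called higher but not without replicate 10 (log2 fold change 0.54, adjusted p = 0.04). *Nampt*, the enzyme that makes NMN from nicotinamide, passed the p but not the fold threshold, at 184–268 CPM (median 205) against 238–525 CPM (median 311) (log2 fold change 0.52 ± 0.10 (SE), adjusted p = 0.00039). *Nadsyn1*, which makes NAD+ from its acid precursor, lay at 3.61–5.06 CPM (median 4.23) in Ctrl and 4.86–6.03 CPM (median 5.28) in Doxo-NMN hearts (log2 fold change 0.31) and was called higher than in Doxo hearts (0.67, adjusted p = 3.8e-07). Of 23 iron genes, *Fth1*, ferritin heavy chain, and *Cp*, ceruloplasmin, were called higher, both without overlap, *Cp* at 99.2–142 CPM (median 118) against 146–280.5 CPM (median 211) (log2 fold change 0.85 ± 0.14 (SE), adjusted p = 4.8e-05).

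In 5 lists of the basic machinery of the cell edgeR called 0 genes at the fold threshold. They were 82 cytosolic ribosomal proteins, 77 mitochondrial ribosomal proteins, 38 proteasome subunits, 36 subunits of complex I and 13 genes of mitochondrial DNA. At adjusted p alone, 34 ribosomal proteins and 5 proteasome subunits were higher and none lower, with median log2 fold changes over the lists of 0.17 and 0.12, and over the subunits of complex I the median was 0.01. By this p alone, 26% of all tested genes passed. At an unadjusted p under 0.05 it was 58, 8, 10, 6 and 3 genes of the 5 lists, and DESeq2 and limma voom also called 0 of them.

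**Figure D5:**
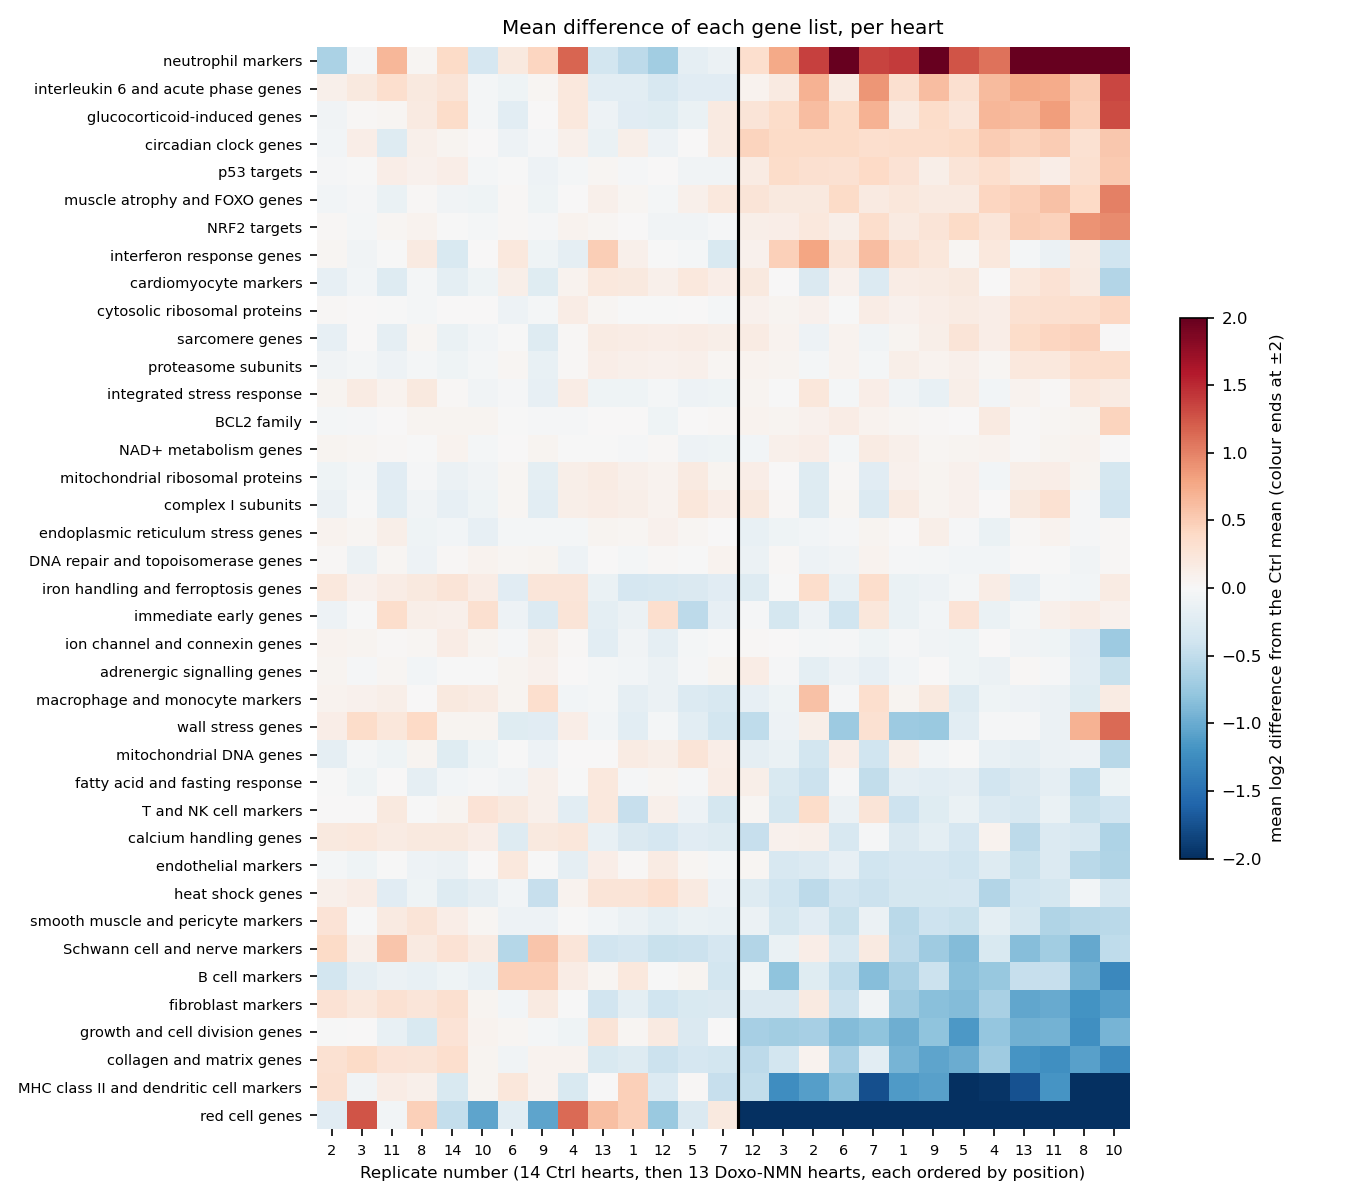
Colours give the mean log2 difference from the Ctrl mean over each gene list shown (rows) in each heart (columns). The 14 Ctrl hearts are left of the line and the 13 Doxo-NMN hearts right of it, with the scale ending at ±2. The epicardial, atrial, adipocyte, skeletal muscle and lung marker lists are left out of the plot. Red cell, MHC class II and cell division lists are low in every Doxo-NMN heart, while acute phase, NRF2 and wall stress lists are highest in replicate 10. Hearts are ordered by position within each group.

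The lists also varied among the Doxo-NMN hearts themselves. The list means below the lowest Ctrl heart in all 13 were those of red cell, cell division and MHC class II genes, and those above the highest Ctrl heart in all 13 were those of clock genes and NRF2 targets. Matrix genes ranged from −1.28 in replicate 10 to 0.0759 in replicate 2 as a mean log2 difference from Ctrl, and 10 hearts were below every Ctrl heart. Wall stress genes ranged from −0.745 in replicate 9 to 1.14 in replicate 10, with 2 hearts above and 4 below every Ctrl heart. The mean over clock genes ranged from 0.303 to 0.533, and it averages 8 genes called higher with 4 called lower.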

How the data were processed

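Per the labels and the study's methods, poly(A) RNA of each heart was sequenced single-end, and the authors aligned the reads to mm10 with STAR (2.7.3a in the submitters' processing notes) and deposited raw counts per gene from featureCounts (2.0.0). Whether counting used strand is not given in the sources used here. From the counts of the acute hearts, 14240 genes that passed filterByExpr were fitted over the 3 acute groups with TMM factors and edgeR's quasi-likelihood test (edgeR 4.0.16, R 4.3.3), with Benjamini-Hochberg adjustment over all tested genes. Each sample is 1 heart, the acute hearts are of 1 cohort per the study's methods, and the labels give no collection batch, so p-values measure the spread between these hearts. The gene lists, the genes and the tests were chosen with earlier results of these data known. Genes were named by smallest adjusted p (12 per direction), largest fold (6 per direction), calls on the same side of Ctrl and Doxo (up to 6 per direction) and leading calls of each list (up to 5), and others after their values were seen. The largest folds were taken among called genes with a mean of at least 1 CPM in Ctrl or Doxo-NMN hearts. The fit without Doxo replicate 6 of the comparisons with Doxo was added after seeing the data. The script was tested on simulated data. The chronic study's counts were not used here.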

Additional observations from a re-analysis of the deposited data

How the results depend on the processing

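The number of genes called in Doxo-NMN against Ctrl, 1012 (472 higher and 540 lower), depended on the filter, the cutoff and the hearts used. It was 1698 (1062 higher, 636 lower) with no low count filter, so 62.5% of the calls were higher there against 46.6%, and 647 (289 and 358) with at least 10 counts in every heart. Within hearts under 100 CPM of *Myl4* it was 575 (309 and 266), and within those at or over it 599 (300 and 299), with fewer hearts in each. It was 3705 (2129 and 1576) with no fold cutoff and 368 (181 and 187) with a cutoff of 2, and a test against 1.2-fold gave 703 (371 and 332, 52.8% higher). Leaving out each heart in turn gave 842 to 1157 genes, 378 to 520 higher and 464 to 661 lower, with the fewest genes in all without Doxo-NMN replicate 10 and the most without Doxo-NMN replicate 2. DESeq2 called 1048 genes (487 and 561) and limma voom 1186 (442 and 744, 37.3% higher). With counts halved, tried because a median of 73.6% of counts from 1 to 20 per heart were even, it was 892. With the replicate number as a block it was 962, of which 905 were also called without it. Over 13 same-numbered pairs the correlation of deviations ran from −0.624 to 0.584 with a median of 0.257, against −0.0836 for other numbers, 8 pairs were over 0.1, and 1 heart correlated best with its own number. Not every pair was over 0.1, and by that rule the main fit took the hearts as sharing only a number. The rule does not settle whether hearts were paired. *Nppb*, not called, changed sign with the replicate block (−0.0602), within hearts at or over 100 CPM of *Myl4* (−0.14), with limma voom (−0.31) and in leave-one-out fits (−0.0493 without Doxo-NMN replicate 8 to 0.308), and *Ankrd1*, not called, with limma voom (−0.10). The cause of these shifts was not tested.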

Other observations

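*Hist1h4h*, which encodes a core histone H4, was among the 5 genes with the smallest p of the comparison although it is in none of the lists. It lay at 7.46–12.3 CPM (median 8.77) in Ctrl, 17.1–35.3 CPM (median 25.6) in Doxo-NMN and 9.47–43.3 CPM (median 27.5) in Doxo hearts (log2 fold change 1.46 ± 0.14 (SE), adjusted p = 1e-09, edgeR), and 13 of 13 Doxo-NMN hearts were above every Ctrl heart. Other histone H4 copies are near identical, so its reads may be shared with them.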
